A study of Mus musculus with 6 samples.

Results

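The genes described here are 8 members of the ADAMTS family, Adamts1, Adamts2, Adamts4, Adamts5, Adamts8, Adamts9, Adamts10 and Adamts15. They were chosen by symbol, as the rows of the deposited table whose NCBI gene ID carries these names, and all 8 were found among 18019 IDs. The choice was made with earlier results of these data known. Levels are FPKM, fragments per kilobase of gene scaled to library size, so genes can be compared with each other per unit of length. The hearts came from mice labelled wild type, taken 8 weeks after surgery that narrows the aortic arch and so raises the load on the left ventricle (transverse aortic constriction, TAC). In the VNS-TAC group (3 libraries), a virus injected into the brainstem's dorsal vagal motor nucleus carried the light-gated channel hChR2[H134R] with GFP under the ChAT promoter, and the vagal neurones there were activated by light. The Ctrl-TAC group (3 libraries) received a virus with GFP alone under the same promoter. Both groups had TAC, and no heart without TAC was analysed here. The sources used here name no strain, sex, age or heart chamber. The labels' treatment tag reads VNS for the controls too, so groups were taken from sample titles. VNS-TAC libraries are numbered as in the deposited table, and their names there carry the tag X10Hz_TAC.

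ADAMTS proteins are secreted zinc proteases with thrombospondin-type repeats that anchor them in the extracellular matrix. Members differ in what they cut. Several cleave the large proteoglycans versican and aggrecan, one group trims the amino-terminal propeptide from fibrillar procollagens so that fibres can assemble, and others bind fibrillin microfibrils. They are made mainly by stromal, vascular and other matrix-producing cells, and TIMP3 is their best-known tissue inhibitor. In the mouse heart the versican-cleaving members are known for clearing embryonic matrix in the valves and myocardium.

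The active site shows what the members share and where they part. It holds 3 histidines that bind zinc and 1 glutamate that takes part in catalysis. The coding bases of this stretch are shown from GENCODE M21 transcripts (GRCm38), on the coding strand, with the codons of these 4 residues in capitals.
Adamts1: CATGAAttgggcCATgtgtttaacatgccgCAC
Adamts2: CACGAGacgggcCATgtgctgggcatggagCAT
Adamts4: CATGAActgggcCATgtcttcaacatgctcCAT
Adamts5: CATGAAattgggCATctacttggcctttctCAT
Adamts8: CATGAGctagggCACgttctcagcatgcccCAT
Adamts9: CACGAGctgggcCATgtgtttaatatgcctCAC
Adamts10: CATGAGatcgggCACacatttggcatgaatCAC
Adamts15: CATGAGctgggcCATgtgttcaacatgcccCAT
Each of the 8 transcripts held the stretch 1 time. Adamts9 and Adamts15 encode the same 11 residues as Adamts1, with 28 of 33 bases equal to Adamts1 in each. Adamts4 matches Adamts1 at 10 of 11 residues, Adamts8 at 9, Adamts2 and Adamts10 at 7, and Adamts5 at 5. Family members with the same active-site stretch did not share a direction in the hearts, since Adamts1 and Adamts9 were lower on average in VNS-TAC and Adamts15 was higher.

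The 8 genes lie at 6 places in the genome, counting as 1 each the neighbouring pairs (GRCm38.p6, RefSeq). Adamts1 (chromosome 16, 85793827 to 85803113) and Adamts5 (85858157 to 85901125) are 55.0 kb apart. Adamts15 (chromosome 9, 30899155 to 30922452) and Adamts8 (30942562 to 30963838) are 20.1 kb apart. Adamts4 is on chromosome 1 (171250129 to 171262267), Adamts9 on chromosome 6 (92772699 to 92944450), Adamts2 on chromosome 11 (50602085 to 50807573) and Adamts10 on chromosome 17 (33523646 to 33553782). Exons of Adamts8 and Adamts9 overlap genes on the opposite strand in GENCODE M21, and whether reads were counted by strand is not given in the sources used here. Adamts8 shares 489 of 4613 exon bases with the antisense gene Gm29724, and Adamts9 shares 1381 of 15048 bases with A730049H05Rik and 424 with Gm15737.

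The Ctrl-TAC libraries resembled each other across genes (Pearson correlation of log2(FPKM + 1) 0.988 to 0.992), and the VNS-TAC libraries less so (0.941 to 0.979). VNS-TAC 3 had the lowest correlations with every other library, and VNS-TAC 1 the next lowest with the Ctrl-TAC libraries. Values of FPKM summed to between 531600 and 585330 in VNS-TAC and between 516493 and 534248 in Ctrl-TAC. Depth in units of 1e6 fragments was estimated from the steps of 1 fragment in low values of short genes, at about 14.58 to 15.78 in VNS-TAC and 13.82 to 15.02 in Ctrl-TAC. At that depth the members other than Adamts4 rest on roughly 37 to 2138 fragments per library, and Adamts4 on 5 to 82. The tissue label fits its markers in all 6 libraries, the 9 cardiomyocyte markers summing to 52454 to 82335 FPKM in VNS-TAC and 60992 to 63900 FPKM in Ctrl-TAC. The labels do not say that each library is a separate animal, so every p-value measures spread among libraries, which may in part be technical.

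The mean log2(FPKM + 1) was lower in VNS-TAC than in Ctrl-TAC for 6 of the 7 tested members, a direction shared by 61.8% of all genes tested. Counts of tested genes lower or higher on average, here and below, use that mean. Adamts1, Adamts8 and Adamts10 were lower in every VNS-TAC library than in any Ctrl-TAC library, and Adamts9 and Adamts2 were lower on average with overlap. Adamts15 was higher on average, Adamts5 differed by less than the spread between libraries, and Adamts4 was close to the floor of the data. No single member passed the adjusted threshold in limma (adjusted p from 0.242 to 0.956), and neither did any of the 11422 genes tested (0%). Genes were tested where their 6-library mean reached 1 FPKM, as it did for 7 of the 8 members.

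Counts over the members were set beside those over all genes. The members were chosen with earlier results of these data known, so the counts describe this set and are no test of it. All 3 tested ADAMTS genes outside the set were higher on average in VNS-TAC. At an unadjusted p under 0.05, limma gave 4 of the 7 tested members as lower, where 11.3% of all genes were, and 1 as higher, where 3.79% were. The groups did not overlap in 3 members, all lower in VNS-TAC, a pattern seen in 17.4% of all genes, and in 0 that were higher, against 8.01%. Adamts8, part of both lower counts, passed the filter only through its Ctrl-TAC values (mean 0.91 FPKM in VNS-TAC). The median log2 difference of the 7 tested members was -0.67, beside -0.08 over all genes tested. Higher genes made up 25.2% of all genes below that unadjusted p; size factors put their share at 46.7%, quantile normalization at 54.4%, and rescaling every library to the same sum at 10.8%. Under these scalings and the main one, Adamts1, Adamts2, Adamts8, Adamts9 and Adamts10 stayed lower on average and Adamts15 higher, while Adamts5 changed sign.

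**Figure D1:**
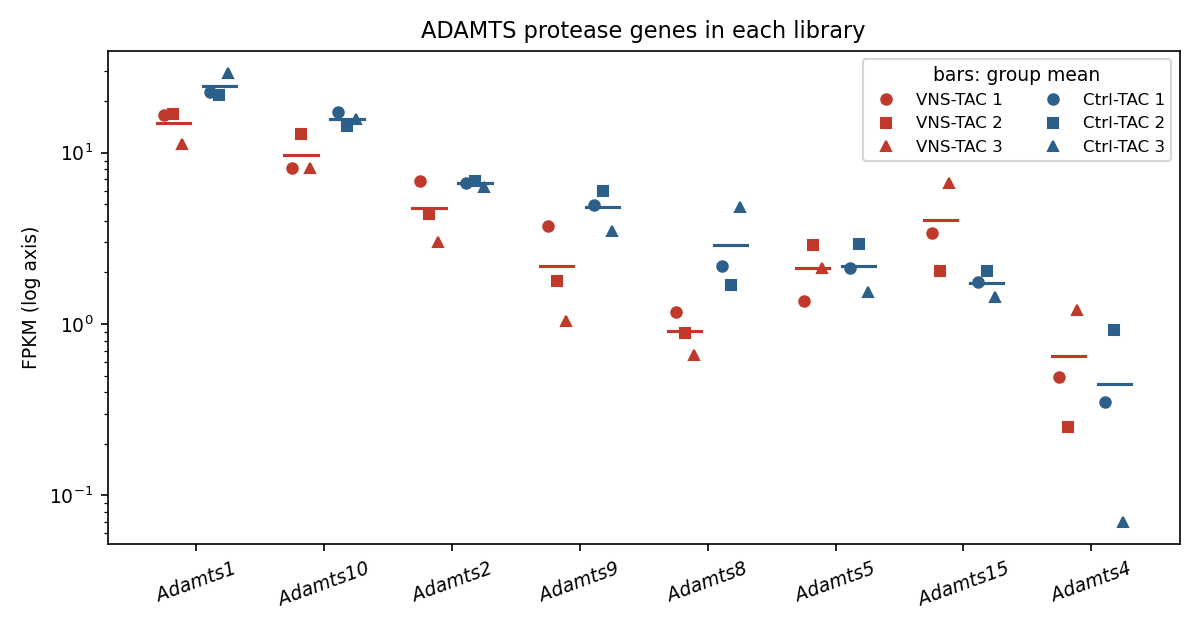
FPKM (log axis) of the 8 genes in each library, with VNS-TAC left of Ctrl-TAC, symbols for libraries and bars for group means. The groups are separate for Adamts1, Adamts10 and Adamts8, and Adamts15 is highest in VNS-TAC 3.

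Adamts1 cleaves versican, aggrecan and nidogens, is quickly induced by many stimuli and is also known as an inhibitor of blood vessel growth. It was the most abundant member in all 6 libraries. Adamts1 was at 16.6, 16.9 and 11.2 FPKM in VNS-TAC libraries 1, 2 and 3, against 22.6, 21.7 and 29.1 FPKM in Ctrl-TAC 1, 2 and 3. The highest VNS-TAC library lay below the lowest Ctrl-TAC library. The group means were 14.9 ± 3.20 FPKM in VNS-TAC and 24.5 ± 4.08 FPKM in Ctrl-TAC (SD, n = 3 each), a log2 difference of -0.69 ± 0.19 (SE; limma unadjusted p = 0.00835, adjusted p = 0.242). Without VNS-TAC 3 the difference was -0.51.

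The Adamts1 promoter is shown because the gene carries the largest share of the family's RNA here and is known from other settings as rapidly induced. RefSeq promoters (250 bases before to 50 after the start) were at hand for 3 of the 8 members. That of Adamts1 (GRCm38.p6, chr16:85803064-85803363, minus strand) is printed 5′ to 3′ with motif matches in capitals.
Adamts1: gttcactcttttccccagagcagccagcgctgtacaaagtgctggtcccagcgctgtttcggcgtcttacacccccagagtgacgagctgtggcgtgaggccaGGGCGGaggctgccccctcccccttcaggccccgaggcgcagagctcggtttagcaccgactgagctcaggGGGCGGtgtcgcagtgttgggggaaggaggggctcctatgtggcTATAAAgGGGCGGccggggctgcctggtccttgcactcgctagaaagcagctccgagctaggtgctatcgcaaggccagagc
It holds the TATA box letters TATAAA at position -32 from the start, which 13.6% of all 32851 promoters in the table hold, and 3 GC boxes (CCGCCC, on either strand; held by 35.7%). The Adamts2 and Adamts9 promoters hold 5 and 1 GC boxes and no TATAAA. The Adamts9 window (chr6:92943485-92943784, minus strand) belongs to a start inside the gene, whose span ends at 92944450. None of the 3 promoters holds the letters searched for AP-1 (TGANTCA), the core of the cAMP response element (GACGTC), TEAD (GGAATG) or the hypoxia response element (ACGTG) in this window, on either strand. These letters occur in 7.8%, 4.4%, 14.7% and 19.6% of all promoters.

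Adamts9 is a versican-cleaving protease with a conserved role in vessels and cardiac development in mice. Its level was 3.71, 1.79 and 1.04 FPKM in VNS-TAC libraries 1, 2 and 3, against 4.95, 6.01 and 3.47 FPKM in Ctrl-TAC. The groups overlapped, because VNS-TAC 1 lay above Ctrl-TAC 3. Adamts9 averaged 2.18 ± 1.38 FPKM in VNS-TAC and 4.81 ± 1.28 FPKM in Ctrl-TAC (SD, n = 3 each). The log2 difference was -0.93 ± 0.32 (SE; limma unadjusted p = 0.0202, adjusted p = 0.264), and it was -0.66 without VNS-TAC 3 and -1.26 without VNS-TAC 1. The unadjusted p was 0.0631 without VNS-TAC 2, 0.0543 without Ctrl-TAC 1 and 0.0698 without Ctrl-TAC 2. Quantile normalization gave 0.0564, and removal of the length trend 0.0902.

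Adamts8, like Adamts1, was described as an inhibitor of blood vessel growth and has weak aggrecan-cleaving activity. Its values were 1.18, 0.89 and 0.66 FPKM in VNS-TAC libraries 1, 2 and 3, against 2.19, 1.69 and 4.81 FPKM in Ctrl-TAC. All VNS-TAC libraries lay below all Ctrl-TAC libraries, which no longer held after quantile normalization, and Ctrl-TAC 3 stood well above the other controls. The means were 0.91 ± 0.26 FPKM in VNS-TAC and 2.90 ± 1.68 FPKM in Ctrl-TAC (SD, n = 3 each), with a log2 difference of -0.96 ± 0.29 (SE; limma unadjusted p = 0.0116, adjusted p = 0.247). Without Ctrl-TAC 3 the difference was -0.63, and with a pseudocount of 0.1 in place of 1 it was -1.46. The VNS-TAC mean lay below the filter of 1 FPKM, so Adamts8 was tested only because of its Ctrl-TAC values.

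Adamts15, also a versican-cleaving protease, ran the other way. It was at 3.40, 2.04 and 6.69 FPKM in VNS-TAC libraries 1, 2 and 3, against 1.76, 2.04 and 1.44 FPKM in Ctrl-TAC. VNS-TAC 2 and Ctrl-TAC 2 had the same value, while VNS-TAC 1 and 3 were above every control. Adamts15 averaged 4.04 ± 2.39 FPKM in VNS-TAC and 1.75 ± 0.30 FPKM in Ctrl-TAC (SD, n = 3 each). The log2 difference was 0.78 ± 0.32 (SE; limma unadjusted p = 0.0421, adjusted p = 0.315). It was 0.42 without VNS-TAC 3 and 0.27 with array weights (unadjusted p = 0.192), and leaving out any library but VNS-TAC 2 put the unadjusted p above 0.05.

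Adamts8 and Adamts15 are neighbours on chromosome 9, and their ratio was computed after their values were seen, so it is a description with no test. Adamts8 over Adamts15 was 0.347, 0.436 and 0.099 in VNS-TAC 1, 2 and 3, against 1.24, 0.828 and 3.34 in Ctrl-TAC. Adamts15 was thus the more abundant of the neighbours in every VNS-TAC library, and Adamts8 in Ctrl-TAC 1 and 3. The ratio of Adamts1 to its neighbour Adamts5 overlapped between the groups, at 12.1, 5.81 and 5.29 in VNS-TAC, against 10.7, 7.40 and 19.0 in Ctrl-TAC.

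Adamts5 and Adamts4 are the main aggrecan-cleaving enzymes of cartilage and also cut versican. Adamts5 was at 1.37, 2.91 and 2.12 FPKM in VNS-TAC libraries 1, 2 and 3, against 2.11, 2.93 and 1.53 FPKM in Ctrl-TAC. The ranges were nearly the same. The log2 difference was -0.03, with a 95% confidence interval from -0.58 to 0.52 (limma adjusted p = 0.956). Differences within that interval were not excluded. Adamts4 was at 0.49, 0.25 and 1.20 FPKM in VNS-TAC, against 0.35, 0.92 and 0.07 FPKM in Ctrl-TAC. It missed the filter, its groups overlapped, and a 2-sided exact permutation test of log2(FPKM + 1), which can give no p below 0.1 with 3 libraries against 3, gave p = 0.6.

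Adamts10 binds fibrillin-1, the core protein of elastic microfibrils, and is a weak protease; mutations in human ADAMTS10 cause a connective tissue syndrome with short stature and lens defects. It was the second most abundant member by group mean in both groups. Adamts10 was at 8.18, 12.9 and 8.14 FPKM in VNS-TAC libraries 1, 2 and 3, against 17.3, 14.2 and 15.8 FPKM in Ctrl-TAC. The groups did not overlap, and VNS-TAC 2 came close to the lowest control. Means were 9.75 ± 2.76 FPKM in VNS-TAC and 15.8 ± 1.53 FPKM in Ctrl-TAC (SD, n = 3 each), with a log2 difference of -0.67 ± 0.19 (SE; limma unadjusted p = 0.00931, adjusted p = 0.244). With array weights, which give libraries unlike their group less weight, the difference was -0.37.

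Adamts2 is the procollagen N-proteinase, which removes the amino-terminal propeptide of collagens I, II and III. Its values were 6.82, 4.36 and 3.02 FPKM in VNS-TAC libraries 1, 2 and 3, against 6.68, 6.84 and 6.33 FPKM in Ctrl-TAC. The controls lay close together, VNS-TAC 1 was among them, and VNS-TAC 2 and 3 were below. Adamts2 averaged 4.73 ± 1.93 FPKM in VNS-TAC and 6.62 ± 0.26 FPKM in Ctrl-TAC (SD, n = 3 each), a log2 difference of -0.46 ± 0.24 (SE; limma unadjusted p = 0.0868, adjusted p = 0.381). The difference was -0.23 without VNS-TAC 3 and -0.71 without VNS-TAC 1.

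**Figure D2:**
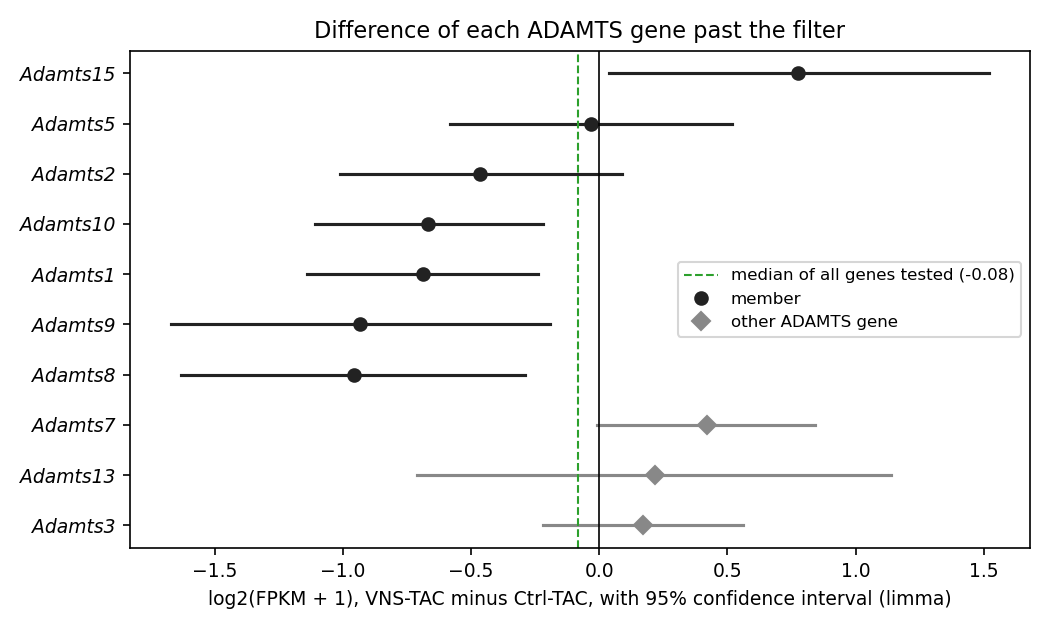
Difference in log2(FPKM + 1), VNS-TAC minus Ctrl-TAC, with 95% confidence intervals from limma for the 7 tested members (circles) and 3 other tested ADAMTS genes (diamonds); the dashed line is the median of all genes tested, -0.08. The intervals of Adamts1, Adamts8, Adamts9 and Adamts10 lie below 0 and that of Adamts15 above 0, before adjustment for 11422 genes.

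Ordered by mean FPKM, VNS-TAC hearts ran Adamts1, Adamts10, Adamts2, Adamts15, Adamts9, Adamts5, Adamts8 and Adamts4, and Ctrl-TAC hearts ran Adamts1, Adamts10, Adamts2, Adamts9, Adamts8, Adamts5, Adamts15 and Adamts4. Among neighbours in the order, the ranges of Adamts1 and Adamts10 overlapped in VNS-TAC and did not in Ctrl-TAC. In VNS-TAC, Adamts2 overlapped Adamts15, Adamts15 overlapped Adamts9, Adamts9 overlapped Adamts5 and Adamts8 overlapped Adamts4, while Adamts5 lay above Adamts8 without overlap. In Ctrl-TAC, Adamts10 was above Adamts2 and Adamts2 above Adamts9 in every library, whereas Adamts9 overlapped Adamts8, Adamts8 overlapped Adamts5 and Adamts5 overlapped Adamts15, which lay above Adamts4 without overlap. The 8 members summed to 41.7, 42.1 and 34.1 FPKM in VNS-TAC libraries 1, 2 and 3, against 57.9, 56.3 and 62.6 FPKM in Ctrl-TAC. Adamts1 made up 37.6% ± 4.08 of that sum in VNS-TAC and 41.3% ± 4.48 in Ctrl-TAC, and Adamts10 made up 24.7% ± 5.60 and 26.8% ± 2.60 in the same groups (SD, n = 3 each). Adamts15 took 8.1%, 4.8% and 19.6% in VNS-TAC, against 3.0%, 3.6% and 2.3% in Ctrl-TAC.

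**Figure D3:**
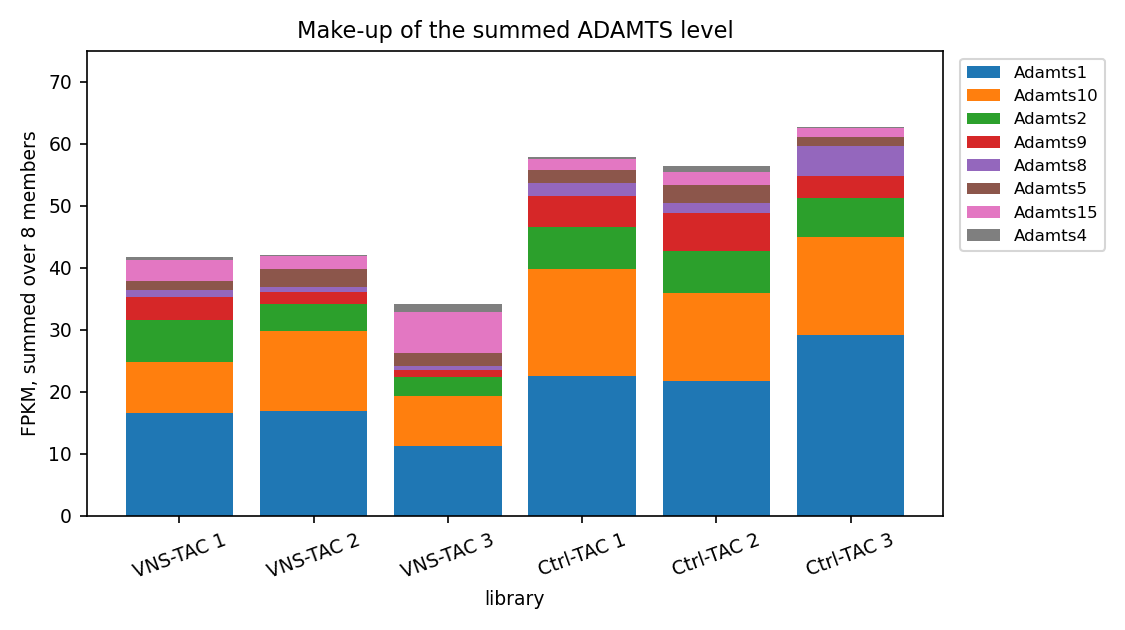
FPKM summed over the 8 genes in each library, with VNS-TAC libraries left of Ctrl-TAC libraries and colours for genes. The sums are 34.1 to 42.1 FPKM in VNS-TAC and 56.3 to 62.6 FPKM in Ctrl-TAC, with Adamts1 and then Adamts10 the largest parts in every library; Adamts15 comes next in VNS-TAC 3, at 6.69 FPKM beside 8.14 FPKM of Adamts10.

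Markers of the cell types that could carry these genes also varied, and VNS-TAC 3 was the lowest library for most of them. The 12 fibroblast markers, none of them at 0, averaged -0.19 in VNS-TAC 1, -0.22 in VNS-TAC 2 and -0.97 in VNS-TAC 3 on the log2 scale less the Ctrl-TAC mean, and -0.05 to 0.03 across the Ctrl-TAC libraries. Of them 10 were lower on average in VNS-TAC and 5 did not overlap. Their log2 differences ran from -1.30 for Lum to 0.31 for Clec3b, with a median of -0.46. Those of Pdgfra and Tcf21 were -0.21 and -0.15. The 12 summed to 489 to 1081 FPKM in VNS-TAC and 1007 to 1076 FPKM in Ctrl-TAC. Gsn was the largest part, at 357 to 823 FPKM in VNS-TAC and 693 to 746 FPKM in Ctrl-TAC. All 11 smooth muscle and pericyte markers were lower on average, with sums of 237 to 278 FPKM in VNS-TAC and 296 to 445 FPKM in Ctrl-TAC. Endothelial markers were lower in 8 of 10, with sums of 428 to 525 FPKM in VNS-TAC and 499 to 554 FPKM in Ctrl-TAC. Macrophage markers were lower in 8 of 10, with sums of 245 to 459 FPKM in VNS-TAC and 354 to 386 FPKM in Ctrl-TAC. No fibroblast, smooth muscle, endothelial or macrophage marker passed the adjusted threshold in limma (at an unadjusted p under 0.05, 3 fibroblast, 2 smooth muscle and pericyte, 2 endothelial and 0 macrophage markers were lower, and 0 higher), and none of these markers was at 0 in any library. Atrial markers averaged -0.43, -0.04 and 0.48 in VNS-TAC 1, 2 and 3 relative to the Ctrl-TAC mean, and ranged from -0.89 to 0.49 in Ctrl-TAC; VNS-TAC 3 was the highest VNS-TAC library both for these markers and for Adamts15. Among the controls the order was the other way round, with the atrial markers highest in Ctrl-TAC 3 (0.49), where Adamts15 was lowest (1.44 FPKM), and lowest in Ctrl-TAC 2 (-0.89), where Adamts15 was highest (2.04 FPKM). In bulk tissue, fewer cells of a type and less RNA per cell cannot be told apart.

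Early-response genes, listed as a check of handling, were lower on average in 14 of 16, with no call after adjustment and 7 at an unadjusted p under 0.05. Less the Ctrl-TAC mean, they averaged -0.20 in VNS-TAC 1, -0.84 in VNS-TAC 2 and -1.31 in VNS-TAC 3, and between -0.21 and 0.11 across Ctrl-TAC libraries. Adamts9, Adamts8 and Adamts2 had the same order of VNS-TAC libraries, highest in VNS-TAC 1 and lowest in VNS-TAC 3. The part of handling or of cell numbers in the ADAMTS values was not tested.

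**Figure D4:**
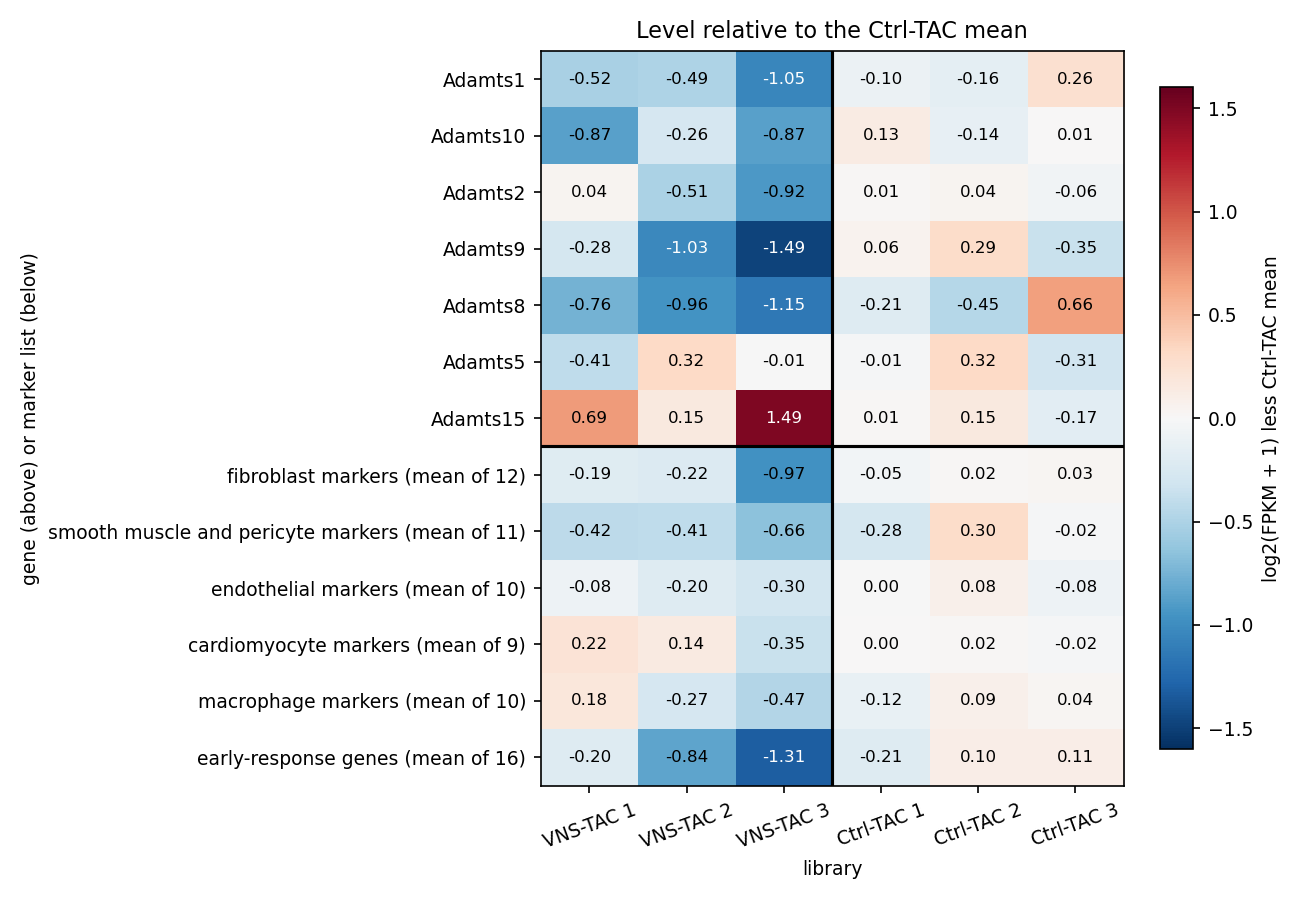
Level of 7 members (above the line) and mean of 6 marker lists (below it) in each library as log2(FPKM + 1) less the Ctrl-TAC mean, with VNS-TAC left of Ctrl-TAC. Adamts1, Adamts8 and Adamts10 are below the Ctrl-TAC mean in all VNS-TAC libraries, and fibroblast markers are lowest in VNS-TAC 3.

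To set each member against the fibroblast markers of its own library, the mean of the 12 markers was subtracted from its log2(FPKM + 1). On this scale 6 of the 7 members overlapped between groups, and the share over all genes was not computed. The subtracted mean was itself lower in every VNS-TAC library than in any Ctrl-TAC library. Subtraction thus raised every gene in VNS-TAC relative to Ctrl-TAC. The difference of VNS-TAC minus Ctrl-TAC was -0.23 for Adamts1, -0.21 for Adamts10, -0.50 for Adamts8, -0.47 for Adamts9, 0.43 for Adamts5 and about 0 (-0.003) for Adamts2. Single libraries moved several of these values. Without Ctrl-TAC 3 the difference was -0.11 for Adamts1, -0.18 for Adamts8 and 0.26 for Adamts5. For Adamts5 it was 0.16 without VNS-TAC 3 and 0.75 without VNS-TAC 1, and for Adamts9 it was -0.30 without VNS-TAC 2. For Adamts10 it was 0.027 without VNS-TAC 1. Adamts15 did not overlap, lying at -2.44, -2.94 and -0.85 in VNS-TAC 1, 2 and 3, against -3.25, -3.18 and -3.50 in Ctrl-TAC, a difference of 1.24. Its 2-sided exact permutation p was 0.1, the smallest that 20 assignments can give, and 0.35 after adjustment over the 7 members. Without VNS-TAC 3 the difference was 0.62. A p that cannot reach 0.05 does not show that the other members follow the markers.

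**Figure D5:**
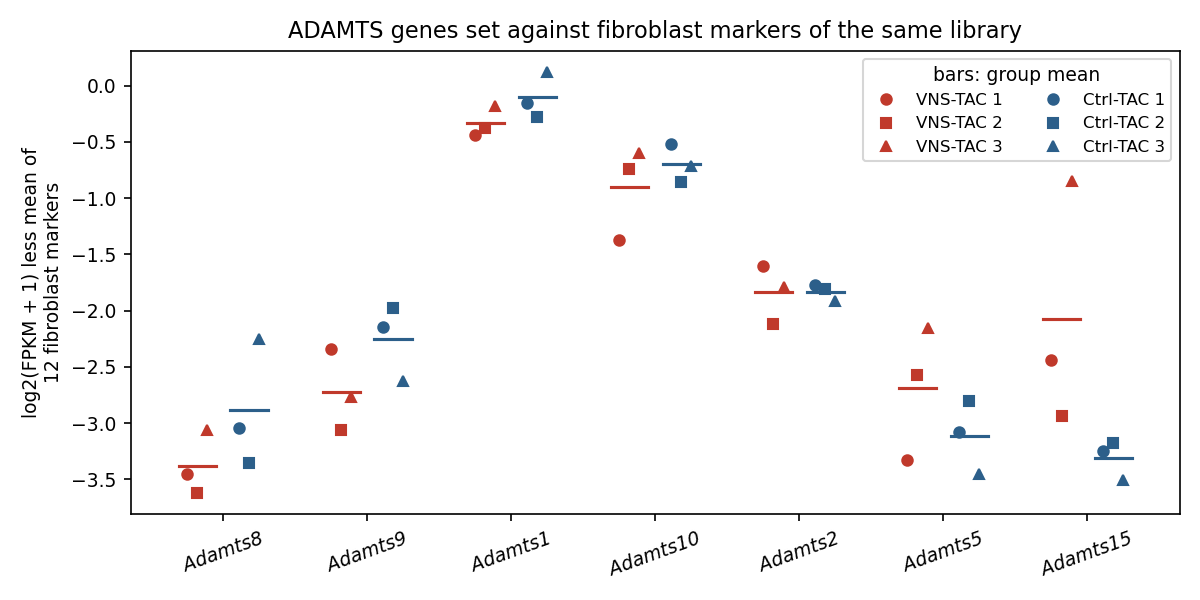
log2(FPKM + 1) of each tested member less the mean of 12 fibroblast markers in the same library, with VNS-TAC left of Ctrl-TAC and bars for group means. The groups overlap for 6 members, and Adamts15 is higher in VNS-TAC by 1.24 with 1 library, VNS-TAC 3, far above the rest.

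Of the 11 ADAMTS genes outside the set, 8 were below the filter in these hearts. The 3 that passed were higher on average in VNS-TAC, with no call by limma at an adjusted or an unadjusted p under 0.05. The 8 below the filter were not tested. Among them Adamts6 and Adamts18 had a higher mean FPKM in VNS-TAC, and the others a lower one. Adamts20 did not overlap, at 0.08, 0.15 and 0.12 FPKM in VNS-TAC, against 0.32, 0.46 and 0.40 FPKM in Ctrl-TAC. Adamts7, known for cleaving cartilage oligomeric matrix protein, averaged 6.68 ± 1.65 FPKM in VNS-TAC and 4.65 ± 0.36 FPKM in Ctrl-TAC (SD, n = 3 each; limma unadjusted p = 0.0522, adjusted p = 0.337). Adamts13, the protease of von Willebrand factor, was at 2.01, 3.17 and 8.62 FPKM in VNS-TAC, against 3.85, 2.68 and 3.32 FPKM in Ctrl-TAC. Adamts3, another procollagen N-proteinase, averaged 1.17 ± 0.35 FPKM in VNS-TAC and 0.91 ± 0.20 FPKM in Ctrl-TAC.

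ADAMTS-like proteins have the family's matrix-binding domains without the protease. Of 5 tested, 4 were lower on average, 3 of them without overlap and 2 at an unadjusted p under 0.05. Papilin (Papln) averaged 2.09 ± 1.57 FPKM in VNS-TAC and 6.32 ± 1.14 FPKM in Ctrl-TAC (SD, n = 3 each), a log2 difference of -1.38. Adamtsl2, which binds fibrillin-1 and latent TGF-beta binding protein, averaged 6.43 ± 4.21 FPKM in VNS-TAC and 17.6 ± 3.43 FPKM in Ctrl-TAC, a log2 difference of -1.51. Both had an adjusted p of about the members' size in limma (0.241 and 0.251). Thsd4, the third without overlap, differed by -0.30 and Adamtsl5 by -0.35.

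Substrates of these enzymes were mostly lower too, and none passed the adjusted threshold. Versican (Vcan), the proteoglycan that Adamts1, Adamts5, Adamts9 and Adamts15 cut, was at 2.29, 2.40 and 1.18 FPKM in VNS-TAC libraries 1, 2 and 3, against 4.62, 5.62 and 3.20 FPKM in Ctrl-TAC, without overlap (log2 difference -0.89; limma unadjusted p = 0.00638, adjusted p = 0.232). Aggrecan, brevican and neurocan were at no more than 0.17 FPKM in any library. The other tested gene of the versican list of 12, the hyaluronan receptor Cd44, differed by -0.31 with overlap. Among 14 other tested substrates 12 were lower on average, 9 of them without overlap and 10 at an unadjusted p under 0.05. The 4 with the smallest unadjusted p were Fmod (fibromodulin, which binds collagen fibrils), Thbs1 (thrombospondin 1), Comp (cartilage oligomeric matrix protein) and Nid1, with log2 differences of -1.54, -1.64, -1.40 and -0.95 (limma adjusted p from 0.156 to 0.207). Nid1, a basement membrane protein cut by Adamts1, averaged 19.4 ± 5.71 FPKM in VNS-TAC and 37.5 ± 2.87 FPKM in Ctrl-TAC (SD, n = 3 each).

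All 5 procollagens trimmed by Adamts2 and its relatives were lower on average, with a median log2 difference of -1.01 beside -0.46 for Adamts2 itself. Col1a2 and Col5a2 did not overlap between the groups, at log2 differences of -1.26 and -0.81, and Col3a1 and Col1a1 overlapped at -1.59 and -1.01. The 3 tested genes of carboxy-terminal trimming were lower on average, with Bmp1, the procollagen C-proteinase, at -0.34, Pcolce2, an enhancer of it, at -0.58 and Pcolce at -0.37. Neither list held a gene past the adjusted threshold in limma, and 4 and 2 genes had an unadjusted p under 0.05.

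Of 11 tested genes for inhibitors, activators and clearance of ADAMTS proteins, 9 were lower on average and 2 higher. Furin, the protease that removes the propeptide of most ADAMTS proteins, was at 46.6, 43.9 and 40.2 FPKM in VNS-TAC libraries 1, 2 and 3, against 30.4, 34.2 and 36.6 FPKM in Ctrl-TAC. Its groups did not overlap, and it was the 1 gene of the list that was higher at an unadjusted p under 0.05 (log2 difference 0.36; limma unadjusted p = 0.0211, adjusted p = 0.264). B3glct, which adds glucose to the O-fucose of thrombospondin repeats and so aids ADAMTS secretion, differed by -0.39, the protease inhibitor Reck by -0.33 and Lrp1, the receptor that clears Adamts5 from the matrix, by -0.29, all without overlap. These 3 were lower at an unadjusted p under 0.05 in limma (0.0251, 0.0295 and 0.0439). In all, 4 genes of the list were lower without overlap. Timp3, chosen outside the rule for its role, was at 44.2, 84.9 and 121 FPKM in VNS-TAC, against 88.4, 78.5 and 105 FPKM in Ctrl-TAC, a spread wider than the difference of the means.

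The genes with the most similar profiles over the 6 libraries were found by the root mean square difference of log2(FPKM + 1), each profile centred on its own mean. For Adamts1 they were Hbegf, Ccdc80 and Ptgfrn, at 0.048, 0.057 and 0.08. For Adamts10 they were Zfp770, Intu and Gdf10, at 0.081, 0.083 and 0.084. For Adamts8 the nearest were farther away, Cilp2, Cys1 and Phlda1 at 0.219, 0.223 and 0.235. Adamts1 and Adamts10 were each other's nearest member at 0.229, and Adamts1 was nearest to Adamts8 at 0.27. Hbegf, a growth factor of the EGF family, was at 14.8, 15.4 and 10.2 FPKM in VNS-TAC libraries 1, 2 and 3, against 20.6, 21.3 and 25.7 FPKM in Ctrl-TAC. With 6 libraries in 2 groups, this likeness is a description.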

How the data were processed

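Expression was measured by RNA sequencing of oligo-dT captured RNA, per the labels' protocols. The authors deposited FPKM values to 2 decimals, per the file headers. Per the submitters' processing notes, HISAT, featureCounts 1.5.0-p3, DESeq 1.8.3 and GRCm38 were used, with no roles stated; annotation and counting settings were not given in the sources used here. Library names tied the Ctrl-TAC columns to samples. Column numbers for VNS-TAC run 1 to 3, whereas its library names run 4 to 6, so these columns entered as group members without a sample of their own. Symbols came from RefSeq (17890 IDs) and GENCODE M21 (15 more), and 114 IDs had none.

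Values were analysed as log2(FPKM + 1), which understates fold changes of low genes. The 11422 genes whose mean reached 1 FPKM were compared with limma 3.58.1 in R 4.3.3 (intensity trend, 4 residual degrees of freedom, Benjamini-Hochberg adjustment over all, threshold 0.05). Lengths and GC content were those of the longest GENCODE transcript of each gene; the fragment depths rest on them and entered no test. The procedure was tested on simulated data. Members and lists were chosen with earlier results of these data known. Named genes are all members, up to 4 genes per pathway list by unadjusted p, and the 3 nearest profiles of the 3 members with the smallest p. Timp3, aggrecan, brevican and neurocan were named outside this rule, for their roles, after their values were seen. Fibroblast markers and ADAMTS genes below the filter were named outside it too, after their values were seen. Python 3.11.15, pandas 2.3.3, numpy 2.4.6 and matplotlib 3.10.9 were used. Alternatives were pseudocounts, filters, scalings, limma variants, removal of GC or length trends (lowess per library) and each library left out.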

Additional observations from a re-analysis of the deposited data

How the results depend on the processing

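In 19 alternatives the log2 differences of Adamts1, Adamts2, Adamts8, Adamts9, Adamts10 and Adamts15 kept their direction wherever these genes were tested, and their side of the adjusted threshold except under array weights. Array weights, which gave VNS-TAC 1 and 3 weights of 0.246 and 0.247 against 2.82 for VNS-TAC 2, put 3 members past it as lower. Of all 11422 genes, 759 were lower past that threshold with these weights. The 3 members were Adamts1 (-0.49, limma adjusted p = 0.0489), Adamts2 (-0.51, 0.0337) and Adamts9 (-1.07, 0.0142). Over all alternatives the adjusted p of these 3 reached 0.707, 0.753 and 0.717. With array weights Adamts10 moved to -0.37 (0.110) and Adamts15 to 0.27 (0.366). Adamts5 was 0.018 with size factors, 0.117 after quantile normalization, 0.198 with array weights, 0.179 after removal of the GC trend and 0.199 after removal of the length trend, and -0.21 to 0.15 with a library left out. Relative to the fibroblast markers, Adamts2 was 0.075 after quantile normalization, 0.001 with equal sums and 0.12 with the length trend removed. With a library left out it was -0.12 to 0.14, and Adamts10 was -0.359 to 0.027. At an unadjusted p under 0.05, the count of higher members was 0 with no filter and with a mean of at least 5 FPKM. It was also 0 with equal sums and with array weights, and 0 to 1 with a library left out. The count of lower members was 2 with a mean of at least 5 FPKM, where 3 members were tested. It was 3 after quantile normalization or removal of the length trend, where Adamts9 was lost. It was 5 with equal sums and with array weights, and 3 to 5 with a library left out. Members higher without overlap were 1 with size factors, quantile normalization or the length trend removed, and 0 to 1 with a library left out. Members lower without overlap were 5 with equal sums and 3 to 5 with a library left out, 5 of them without VNS-TAC 1; they were 2 after quantile normalization, where Adamts8 overlapped, and 2 with a mean of at least 5 FPKM, where it was not tested. Apart from the filter, where fewer members were tested, the cause was not tested. Counts over all genes moved too. At an unadjusted p under 0.05 in limma, 1286 of 11422 genes were lower in the main analysis. With equal sums 1767 were, with array weights 2517 and after quantile normalization 759. Without VNS-TAC 1 the count was 1711 of 11476. It was 817 of 7654 with a mean of at least 5 FPKM and 843 of 11319 with the length trend removed. Higher genes at that p numbered 433 of 11422 in the main analysis and 585 of 17655 with no filter. They numbered 346 of 7654 with a mean of at least 5 FPKM, 213 with equal sums and 924 with array weights. With a library left out, 582 to 1908 genes were lower and 178 to 809 higher. The share of all genes without overlap was computed only in the main analysis.

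No gene of all those tested passed limma in the main analysis, against 759 lower and 257 higher with array weights. No paired analysis was possible because the VNS-TAC columns carry numbers that the labels do not match to samples, so no replicate block was fitted. Depth limits Adamts4 most.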
